A study of Homo sapiens with 18 samples.

Results

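The clustered H3K27ac domains of LCC are 220 stretches of the genome in which acetylation peaks of untreated H2087-LCC cells lie close together. Peak summits of the first H3K27ac replicate were joined when neighbours lay no more than 12 kb and 500 bp apart, which gave 24730 regions, 12794 of them with a single summit. The domains were chosen by summit number: at least 8 summits of replicate 1, at least 8 of replicate 2 and at least 1 LCC H3K4me1 summit inside. Their LCC H3K27ac counts are therefore a description. They have no p-value, and neither have the other values, since every condition but LCC has 1 library per mark. Domains are numbered from 1 to 220 by the lower of their 2 LCC replicate counts, and positions are in build hg19.

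H3K27ac is deposited on nucleosomes of active promoters and enhancers. H3K4me1 is found at enhancers and beside promoters, and H3K4me3 at promoters. Long runs of acetylated elements, often called stretch enhancers or super-enhancers, are known to lie near genes that define a cell's identity or that tumour cells express strongly. Such runs are usually ranked by read signal. The files used here hold summits and no reads, so number and spacing of summits stand in for it, and a broad peak counts as a single summit. No annotation of build hg19 was used, so no gene is named and the lung identity of the cells was not checked against marker genes.

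The cells are human lung adenocarcinoma lines profiled by chromatin immunoprecipitation and sequencing. TGFb stands for H2087-LCC treated with TGF-β1, which the labels give as 100 nM for 4 days (a dose not checked against another source), SO1 for the line labelled H2087-LCC-SO1 without treatment, H2030 for a separate untreated line, and LCC for H2087-LCC without treatment. LCC and SO1 share a medium with added hydrocortisone, insulin, transferrin, selenite and epidermal growth factor, while H2030 grew in RPMI with serum, glutamine and antimicrobials, so line and medium cannot be told apart for H2030. LCC H3K27ac has 2 biological replicates. The 13 lists used held 68069 H3K27ac summits in TGFb, 56279 in SO1, 52414 in H2030, and 50628 and 62947 in the LCC replicates, between 128082 and 143813 H3K4me1 summits and between 25624 and 28850 H3K4me3 summits. Read depth is unknown.

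The domains covered 10.3 Mb and ranged from 20.8 to 111 kb, with a median of 42.9 kb. They held 2436 summits of LCC replicate 1, or 4.81% of its list, and 2404 of replicate 2, or 3.82%. Each domain had between 8 and 27 summits in replicate 1 and between 8 and 30 in replicate 2, with a median of 10 in both. Counts were identical in 52 domains and within 2 summits of each other in 160, and the largest difference was 9. Neighbouring summits of replicate 1 lay a median of 3.91 kb apart. The same spacing, 3.85 kb, was found in the 1346 other regions with at least 4 summits of each replicate, whose median length was 21.7 kb. Domains were longer than those regions, which follows from asking for more summits at the same joining distance. Median density was 2.35 replicate 1 summits per 10 kb in domains and 2.66 in those regions. Every region begins and ends at a summit, which raises the density of short ones.

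At the threshold, 74 domains had exactly 8 summits in the lower replicate, and 141 regions with H3K4me1 had exactly 7. Their median lengths were 37.5 kb and 31.0 kb. Another 225 regions had at least 8 summits of replicate 1 but fewer than 8 of replicate 2, with a median of 6 in replicate 2. Only 5 regions met both counts and had no LCC H3K4me1. These lay at chr2:92269488-92325099, chr10:42380268-42408277, chr10:42527462-42546090, chr11:51572147-51591117 and chr16:46386846-46435330. They had no H3K27ac summit in TGFb or H2030, at most 2 in SO1, and no H3K4me1 in any condition, while LCC H3K4me3 gave between 2 and 11 summits. Whether these 5 regions lie in repeated sequence, where reads are hard to place, was not checked. Their LCC summits are therefore not read as active elements.

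Of the domains, 211 (95.9%) overlapped a region of at least 8 summits joined from replicate 2 by itself. The rule asked for at least 8 replicate 2 summits in each domain, so this overlap is largely built in. Replicate 2 formed 901 such regions and replicate 1 formed 450, so the set depends on which list is joined. Many of the summits that make a domain were weak. The authors' score, on a −log10 scale of significance, was under 10 for 43.3% of the replicate 1 summits in domains and for 43.4% of the whole list. When only scores of 10 or more were used, 20 domains met the rule. Scores under 10 made up 34.8% of the whole list in TGFb, 27.8% in SO1, 40.4% in H2030 and 42.9% in LCC replicate 2. A single minimum of 10 thus removed unlike shares of the lists.

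Chromosome 1 held 25 domains, chromosome 17 held 23 and chromosome 9 held 17. Chromosome 17 had 10.5% of the domains and 5.11% of the replicate 1 summits, and chromosome 9 had 7.73% and 4.52%. Chromosome 18 held none, with 1.53% of the summits. In 12 places 2 neighbouring domains lay within 100 kb of each other. DNA copy number was not measured in these lists, and its part in the distribution was not tested.

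The domains carried both H3K4 marks more densely than their flanks, but about as densely as the other regions. Pooled over domains, H3K4me1 summits numbered 2.30 per 10 kb in TGFb, 2.01 in SO1, 2.05 in H2030 and 2.18 in LCC, against 1.38, 1.23, 1.39 and 1.38 in flanks of the same length on both sides. H3K4me3 numbered 0.774 in TGFb, 0.782 in SO1, 0.522 in H2030 and 0.663 in LCC, against flanks of 0.265, 0.267, 0.218 and 0.231. The ratio of inside to flank was thus between 1.48 and 1.67 times for H3K4me1 and between 2.40 and 2.93 times for H3K4me3. The median density per region was, for H3K4me1, 2.28 per 10 kb in domains and 2.35 in the other regions in TGFb, 2.04 and 2.01 in SO1, 2.11 and 1.82 in H2030, and 2.21 and 2.20 in LCC. For H3K4me3 it was 0.725 and 0.673 in TGFb, 0.719 and 0.667 in SO1, 0.413 and 0.450 in H2030, and 0.593 and 0.615 in LCC. H3K27ac of the conditions that the rule did not use was 2.40 times denser inside than outside in TGFb, 2.69 in SO1 and 2.26 in H2030. The replicate 1 profile falls to 0 just outside the domains because the rule ends them there. By the rule, each flank also begins with a stretch free of replicate 1 H3K27ac summits. Flanks are thus not a neutral background for any list. LCC H3K4me3 had 0.4651 summits per 10 kb next to the domain start, 0.0872 beyond that and 0.2325 at the far end of the flank. Median H3K27ac density in domains was 1.91 per 10 kb in TGFb, 1.67 in SO1 and 1.55 in H2030. The other regions had 1.86, 1.58 and 1.14.

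**Figure D1:**
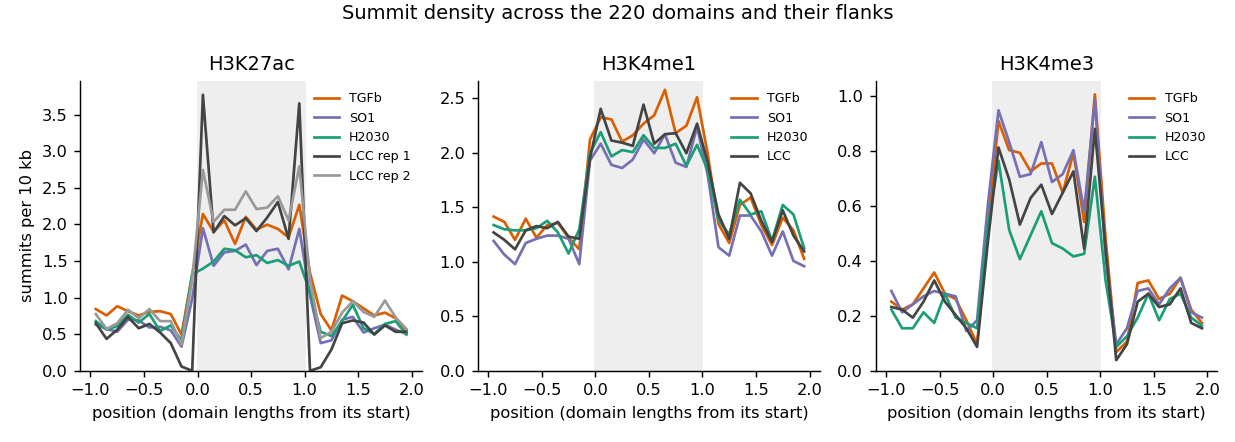
Summits per 10 kb (vertical axis) against position in domain lengths (horizontal axis), pooled over the 220 domains (grey) and 1 domain length on each side, for each library of H3K27ac, H3K4me1 and H3K4me3. H3K4me1 and H3K4me3 are denser inside than outside in all 4 conditions, with H2030 lowest for H3K4me3; the replicate 1 H3K27ac line peaks at the edges because its summits define them, and the replicate 2 line is also higher there than in the middle.

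At least 1 H3K4me3 summit lay in 205 of the 220 domains in TGFb (93.2%), 212 in SO1 (96.4%), 185 in H2030 (84.1%) and 201 in LCC (91.4%). Among the 1346 other regions, which are shorter, the shares were 78.0%, 76.5%, 62.6% and 73.3%. All 4 conditions marked 175 domains, and 5 had no H3K4me3 in any of them. Of the domains with LCC H3K4me3, 3 had none in TGFb, 2 none in SO1 and 23 none in H2030. Among the 19 without LCC H3K4me3, 7 had some in TGFb, 13 in SO1 and 7 in H2030.

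Single summits were of mixed kinds. Of the replicate 1 summits in domains, 30.2% had an LCC H3K4me3 summit within 1 kb, 42.0% had H3K4me1 without H3K4me3, and 27.8% had neither. Outside the domains these shares were 39.6%, 48.6% and 11.8%. Distances run from summit to summit, so acetylation inside a broad H3K4me1 or H3K4me3 peak can count as having neither mark. The part of this in the shares was not tested. The share with neither mark was higher inside than outside in every H3K27ac list: 24.9% and 11.5% in TGFb, 22.9% and 9.11% in SO1, 31.6% and 18.4% in H2030, and 33.1% and 14.1% in LCC replicate 2. Median scores inside and outside were 31.6 and 20.7 in TGFb, 53.7 and 29.6 in SO1, 14.8 and 15.5 in H2030, and 16.2 and 13.5 in LCC replicate 2. In LCC replicate 1 the median was 13.1 inside and lower by less than 1 outside. Scores were set against their own list only.

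The strongest summit of a domain often belonged to the highest 10% of its list. This held for 152 of 220 domains in TGFb (69.1%, Wilson 95% interval 62.7 to 74.8), 165 in SO1 (75.0%, 68.9 to 80.3), 108 in H2030 (49.1%, 42.6 to 55.7), 154 in LCC replicate 1 (70.0%, 63.6 to 75.7) and 157 in replicate 2 (71.4%, 65.1 to 76.9). In the other 1346 regions the shares were 47.4%, 44.7%, 29.3%, 46.1% and 45.2%. Those regions are shorter and hold fewer summits, which gives fewer chances of a high one, and the part of this in the difference was not tested. Intervals here and below cover counting error only.

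The 10 domains with the highest lower count include the longest ones. Domain 1, chr19:1165806-1275647, had 26 H3K27ac summits in TGFb, 30 in SO1, 20 in H2030, and 26 and 30 in LCC replicates 1 and 2. It also had the highest number of LCC H3K4me3 summits, 14 over its 109.8 kb, and 30 LCC H3K4me1 summits. Domain 2, chr17:75312052-75421616, had 27 in TGFb, 18 in SO1, 14 in H2030, and 23 and 23 in LCC. Its H3K4me3 summits numbered 7 in TGFb, 11 in SO1, 2 in H2030 and 3 in LCC. Domain 3, chr17:55923685-56032283, had 23, 19 and 28 summits in TGFb, SO1 and H2030, and 22 and 25 in LCC. These long domains were populated in all 4 conditions, and domain 3 had its highest count in H2030.

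Domain 4, chr10:33519246-33630027, had 31 H3K27ac summits in TGFb, 14 in SO1, 19 in H2030, and 27 and 21 in LCC. H3K4me1 went the same way there, with 33 summits in TGFb, 12 in SO1, 17 in H2030 and 24 in LCC. Domain 5, chr22:36767168-36863942, had 18, 16 and 21 in TGFb, SO1 and H2030, and 22 and 21 in LCC. Domain 6, chr7:55119680-55201346, had 23 in TGFb, 10 in SO1, 13 in H2030, and 21 and 22 in LCC. In SO1 its strongest summit lay at percentile 99.6 of the list, where the LCC replicates had 99.6 and 98.8. Domain 8, chr17:17579576-17656003, had 14, 11 and 11 in TGFb, SO1 and H2030, and 18 and 20 in LCC. Counts in domains 4 and 6 set SO1 below the other conditions, while the strongest summit was as high in its list as in LCC.

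Domain 7, chr1:228746237-228783834, stood apart from the others at the head of the order. It was the densest domain, with 5.59 LCC summits per 10 kb, and its replicate 1 summits followed each other at a median of 2238 bp, with quartiles of 2121 and 2358 bp. Counts were 13 in TGFb, 7 in SO1, 18 in H2030, and 18 and 24 in LCC. None of its summits was strong: the highest lay at percentile 68.1 in TGFb, 74.8 in SO1, 81.6 in H2030, and 62.9 and 58.6 in LCC. Whether domain 7 lies in repeated sequence, where reads are hard to place, was not checked. Its counts are to be read with that limit. The next densest were domain 188, chr2:173096643-173117489, with 3.84 LCC summits per 10 kb, and domain 101, chr2:23601645-23627254, with 3.71. Domain 188, the shortest of all at 20.8 kb, had 3 H3K27ac summits in TGFb, 3 in SO1, 4 in H2030, and 8 and 8 in LCC. Domain 101 had 7, 4 and 1 in TGFb, SO1 and H2030, and 10 and 9 in LCC.

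Domain 10, chr8:128857337-128944414, combined many H3K27ac summits with few H3K4me1 summits. H3K27ac counts were 16 in TGFb, 21 in SO1, 18 in H2030, and 17 and 19 in LCC. H3K4me1 gave 5, 1 and 2 summits in TGFb, SO1 and H2030, and 2 in LCC, while H3K4me3 gave 13, 13, 7 and 9. In all, 8 domains had at most 3 LCC H3K4me1 summits, a group singled out after its values were seen. Domain 15, chr10:34978138-35055592, also belongs to it, with 4 H3K4me1 summits in TGFb, 11 in SO1, 18 in H2030 and 2 in LCC. Few summits did not mean weak ones. The strongest H3K4me1 summit of domain 10 lay at percentile 100.0 of the list in TGFb and SO1 and at 99.9 in H2030 and LCC. In 7 of the 8 domains the strongest LCC H3K4me1 summit belonged to the highest 10% of its list, and in domain 188 it lay at percentile 85.9.

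Among the domains with most promoter marks after domain 1, domain 164, chr12:54368246-54431204, had H3K4me3 counts of 12 in TGFb, 12 in SO1, 6 in H2030 and 12 in LCC. Its H3K27ac counts were 11, 9 and 7 in TGFb, SO1 and H2030, and 10 and 8 in LCC. Domain 25, chr9:140072656-140135873, had 10, 7, 6 and 11 H3K4me3 summits in TGFb, SO1, H2030 and LCC, and its H3K27ac counts were 11, 11 and 12, and 16 and 13 in LCC. Domain 12, chr3:177308379-177383649, led the domains without LCC H3K4me3. It had 10 H3K27ac summits in TGFb, 7 in SO1, 1 in H2030, and 17 and 16 in LCC. Domain 16, chr2:28807160-28886614, had 12, 11 and 4, against 19 and 15 in LCC, and domain 61, chr17:45331565-45383594, had 9, 6 and 9, against 11 and 14. The domains rich in H3K4me3 kept H3K27ac summits in H2030, whereas domains 12 and 16 held few there. Domain 61, also without LCC H3K4me3, held 9 in H2030.

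**Figure D2:**
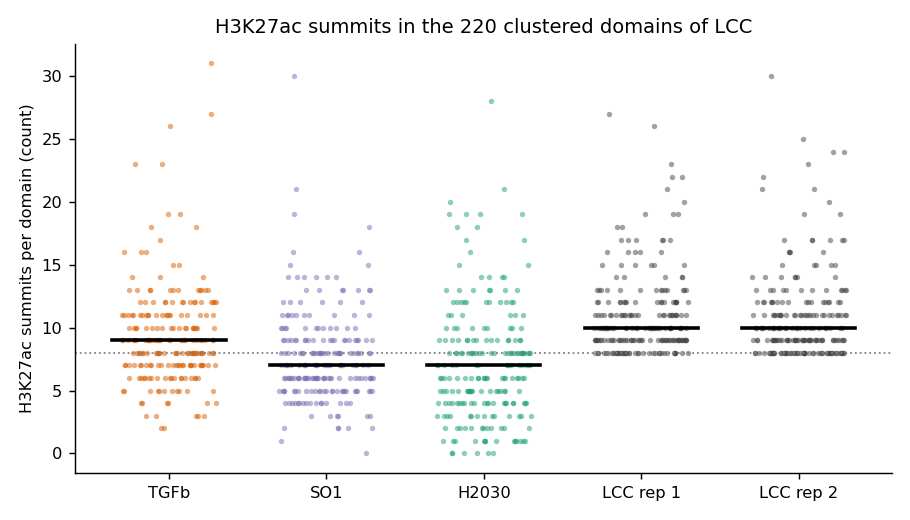
H3K27ac summits per domain (vertical axis) in each H3K27ac library, 1 point per domain, with the median as a black bar and the choosing minimum of 8 as a dotted line. Medians are 9 in TGFb, 7 in SO1, 7 in H2030 and 10 in each LCC replicate; only the LCC lists were used to choose the domains, which keeps them at or above 8.

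Condition by condition, the domains held fewer H3K27ac summits than in LCC. Counts ranged from 2 to 31 in TGFb with a median of 9, from 0 to 30 in SO1 with a median of 7, and from 0 to 28 in H2030 with a median of 7. The LCC medians of 10 are raised by the choice of domains, which asks for high counts in LCC alone, so lower counts elsewhere are built into the rule. Fewer summits than both LCC replicates were found in 123 domains in TGFb, 173 in SO1 and 167 in H2030, and more than both in 26, 6 and 22. Fewer than both thus made up 55.9%, 78.6% and 75.9% of the domains, beside 55.6%, 72.5% and 78.7% of all 1566 regions with at least 4 summits of each LCC replicate. More than both made up 11.8%, 2.73% and 10.0%, beside 7.98%, 2.94% and 4.79%. Each count was next divided by the length of its list and then by the LCC mean. The median of this ratio was 0.68 in TGFb, 0.71 in SO1 and 0.68 in H2030, beside 0.62, 0.65 and 0.50 over all 1566 regions. The 3 comparisons share the LCC libraries.

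A ratio of 0.5 or less was found in 31 domains in TGFb (14.1%, Wilson 95% interval 10.1 to 19.3), 43 in SO1 (19.5%, 14.8 to 25.3) and 68 in H2030 (30.9%, 25.2 to 37.3). Over all 1566 regions the shares were 28.8%, 33.7% and 50.2%. Members thus lay below the background in each condition. Small regions, whose counts are small whole numbers, can reach a low ratio more easily, and the part of size in this difference was not tested. With LCC replicate 1 left out, the shares were 23.0% in TGFb, 31.9% in SO1 and 49.0% in H2030 of 896 domains, and without replicate 2 they were 46.8%, 44.6% and 52.0% of 444. With scores of 10 or more the shares were 45.0% in TGFb, 10.0% in SO1 and 10.0% in H2030 of 20 domains. The order of the conditions therefore depends on the replicate and on the score minimum, which removes unlike shares of the lists. No domain had a ratio of 2 or more in any condition, where the background was 0% in TGFb, 0% in SO1 and 0.255% in H2030. A low ratio was found in no condition for 112 domains, in 1 condition for 80, in 2 for 22 and in all 3 for 6. These are 50.9%, 36.4%, 10.0% and 2.73% of the domains, beside 30.7%, 36.1%, 23.2% and 10.0% of all regions.

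No H3K27ac summit at all was found in 0 domains in TGFb, 1 in SO1 and 6 in H2030. The background over all regions was 1.09%, 2.30% and 16.9%. The H2030 share among members was 2.73% (1.26 to 5.82).

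Whether fewer summits went with weaker ones differed by condition. Of the 31 domains with a low ratio in TGFb, 23 had a TGFb summit in the highest 10% of its list, as had 129 of the other 189. In SO1 the counts were 25 of 43 and 140 of 177, and in H2030 they were 16 of 68 and 92 of 152. The strongest summit of the low-ratio domains lay above both LCC replicates in percentile in 18 and below both in 8 in TGFb, in 15 and 21 in SO1, and in 9 and 55 in H2030. Its median percentile was 97.5 in TGFb, 92.1 in SO1 and 74.4 in H2030, where LCC replicates 1 and 2 had 96.1 and 96.7, 92.2 and 91.9, and 92.0 and 92.7 in the same domains. Low ratios without such a summit were left in 8 domains in TGFb (3.64%), 18 in SO1 (8.18%) and 52 in H2030 (23.6%). The background for this stricter call, which was chosen after the values were seen, was 17.3%, 22.2% and 42.3%. H3K4me1 was also low in many of these domains in H2030 and in few in the H2087 conditions: among the low-ratio domains it was at 0.5 or less of the LCC count in 1 of 31 in TGFb, 6 of 43 in SO1 and 27 of 68 in H2030. In the remaining domains this was so for 1 of 189, 14 of 177 and 7 of 152. Median H3K4me1 counts in the low-ratio domains were 9 in TGFb, 7 in SO1 and 6 in H2030, where LCC had 8, 8 and 9 in the same domains.

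**Figure D3:**
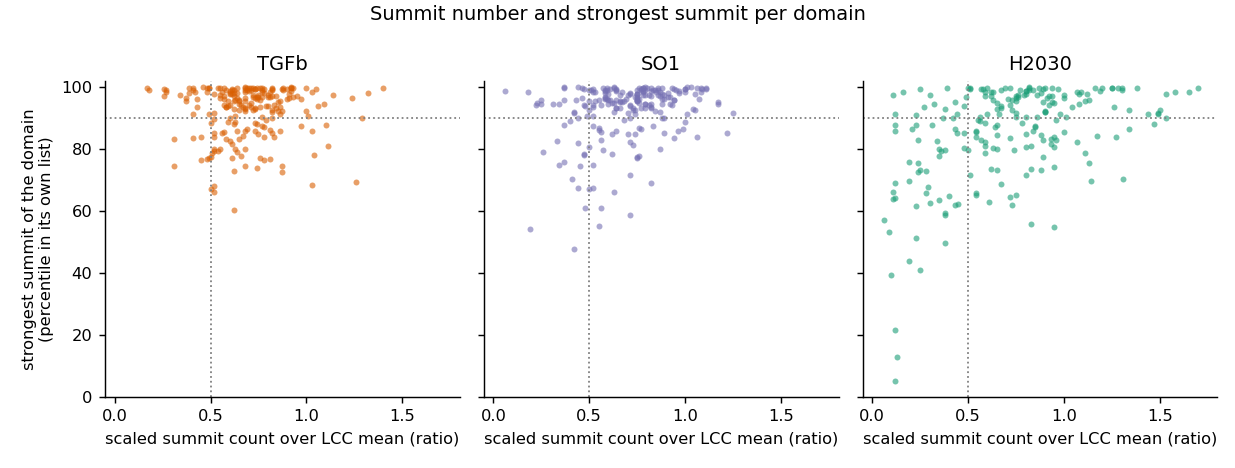
For each domain with a summit in the condition, the ratio of its H3K27ac summit count to the LCC mean, both divided by list length (horizontal axis), and the percentile of its strongest summit in that condition's own list (vertical axis); dotted lines mark a ratio of 0.5 and percentile 90. In TGFb 23 of 31 domains left of the ratio line lie above percentile 90, in SO1 25 of 43, and in H2030 16 of 68.

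The 5 domains with the lowest TGFb ratio all had a TGFb summit at or above percentile 97.1 of its list. Domain 118, chr7:100728959-100781341, had 2 H3K27ac summits in TGFb, 7 in SO1, 10 in H2030, and 9 and 11 in LCC, a TGFb ratio of 0.17. The stronger TGFb summit lay at percentile 99.6, where the LCC replicates reached 94.3 and 95.9. H3K4me3 counts there were 8 in TGFb and 4 in LCC, and H3K4me1 counts 18 and 13. Domain 125, chr9:129126116-129158957, had 2 in TGFb, 4 in SO1, 1 in H2030, and 9 and 9 in LCC, with percentile 99.1 in TGFb and 94.0 and 96.7 in LCC. Fewer and higher summits stood together in both domains.

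Domain 9, chr5:135329556-135393984, had 6 H3K27ac summits in TGFb, 12 in SO1, 13 in H2030, and 20 and 17 in LCC. Its strongest TGFb summit lay at percentile 99.1, against 92.9 and 83.3 in LCC. Domain 103, chr5:153569786-153600933, had 3 in TGFb, 5 in SO1, 5 in H2030, and 10 and 9 in LCC, with percentile 99.4 in TGFb against 97.9 and 98.2. Domain 191, chr3:45161549-45187187, had 3 in TGFb, 6 in SO1, 2 in H2030, and 8 and 11 in LCC, with percentile 97.1 against 91.6 and 94.6. In all 5 domains the TGFb percentile was above both LCC replicates. In the 189 domains without a low TGFb ratio it was above both in 73 and below both in 62. The widths of the peaks, which would show whether neighbouring peaks were joined, are not in the lists.

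The highest TGFb ratios were found at domain 111, chr1:94127665-94167857, with 16 H3K27ac summits in TGFb, 6 in SO1, 7 in H2030, and 9 and 10 in LCC, a ratio of 1.40. Its strongest TGFb summit reached percentile 99.9, against 99.2 and 97.4 in LCC. Around it, the TGFb summits joined into a region of 134.4 kb, where the LCC domain spans 40.2 kb. Domain 207, chr11:64612496-64655358, had 15 in TGFb, 6 in SO1, 11 in H2030, and 8 and 11 in LCC. Domain 107, chr19:49118192-49164057, had 15 in TGFb, 12 in SO1, 8 in H2030, and 10 and 9 in LCC, and so also had the highest SO1 ratio, 1.25. None of the 3 reached a ratio of 2.

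For SO1, the lowest ratios contained 1 domain without any summit and several with a strong summit left. Domain 145, chrX:71131628-71162156, had 6 H3K27ac summits in TGFb, 0 in SO1, 1 in H2030, and 9 and 9 in LCC. H3K4me1 was absent as well, with 0 summits in SO1 and 0 in H2030, against 9 in TGFb and 7 in LCC. It was the only domain without an SO1 summit of H3K27ac, and missing DNA and missing marks cannot be told apart there. Domain 20, chr9:21547455-21596623, had 7 in TGFb, 1 in SO1, 5 in H2030, and 19 and 14 in LCC. That single SO1 summit lay at percentile 98.9, above 89.6 and 91.9 in LCC, and SO1 had 10 H3K4me3 and 7 H3K4me1 summits in the domain, where LCC had 7 and 8. These 2 domains had the lowest SO1 ratios, 0.00 and 0.06: SO1 had no H3K4me1 in domain 145, where H3K4me3 was absent in all 4 conditions, and had both marks in domain 20.

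Domain 90, chr2:37873125-37916153, had 10 in TGFb, 2 in SO1, 2 in H2030, and 13 and 9 in LCC, with the strongest SO1 summit at percentile 98.4. Domain 138, chr13:110426023-110455856, had 7, 2 and 2, and 9 and 9 in LCC, with percentile 94.4 in SO1. Domain 93, chr15:41116193-41171327, had 8 in TGFb, 2 in SO1, 6 in H2030, and 12 and 9 in LCC. Its strongest SO1 summit was only at percentile 54.2, against 88.2 and 80.2 in LCC and 99.9 in H2030. At the upper end after domain 107, domain 121, chr9:32384858-32426796, had 8 in TGFb, 11 in SO1, 3 in H2030, and 9 and 9 in LCC, and domain 10 had 21 in SO1 against 17 and 19. Among the 5 lowest SO1 ratios, only domains 145 and 93 lacked an SO1 summit in the highest 10% of the list.

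In H2030, 6 domains were empty of H3K27ac, and the 5 with the highest LCC mean show how far the other marks followed. Domain 45, chr19:42253707-42303208, had 12 H3K27ac summits in TGFb, 5 in SO1, 0 in H2030, and 13 and 11 in LCC. H2030 still had 6 H3K4me1 and 2 H3K4me3 summits there, against 14 and 3 in LCC. Domain 48, chr9:85642368-85681552, had 8, 6 and 0 H3K27ac summits, and 12 and 11 in LCC, and 1 H3K4me1 summit in H2030 against 10. Domain 84, chr14:91816578-91844558, had 8, 5 and 0, and 10 and 10 in LCC. Domain 166, chr17:21240624-21283394, had 9, 5 and 0, and 10 and 8 in LCC. Domains 84 and 166 had no summit of any mark in H2030, while domain 45 kept both H3K4 marks.

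Domain 128, chr10:12671552-12706387, had 6 H3K27ac summits in TGFb, 9 in SO1, 0 in H2030, and 9 and 11 in LCC, with 1 H3K4me1 summit in H2030 and 9 in LCC. Higher counts in H2030 were found at domain 40, chr19:18385564-18451860, with 11 in TGFb, 10 in SO1, 19 in H2030, and 12 and 12 in LCC, a ratio of 1.70. Domain 56, chr10:21574312-21625459, had 6, 7 and 17, and 11 and 11 in LCC. Its strongest H2030 summit was at percentile 98.3, against 71.2 and 88.1 in LCC. Domain 36, chr6:56573757-56633254, had 13, 14 and 19, and 12 and 14 in LCC. A ratio above 1 was found in 17 domains in TGFb (7.73%), 18 in SO1 (8.18%) and 41 in H2030 (18.6%), beside 7.15%, 8.24% and 13.3% of all 1566 regions.

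**Figure D4:**
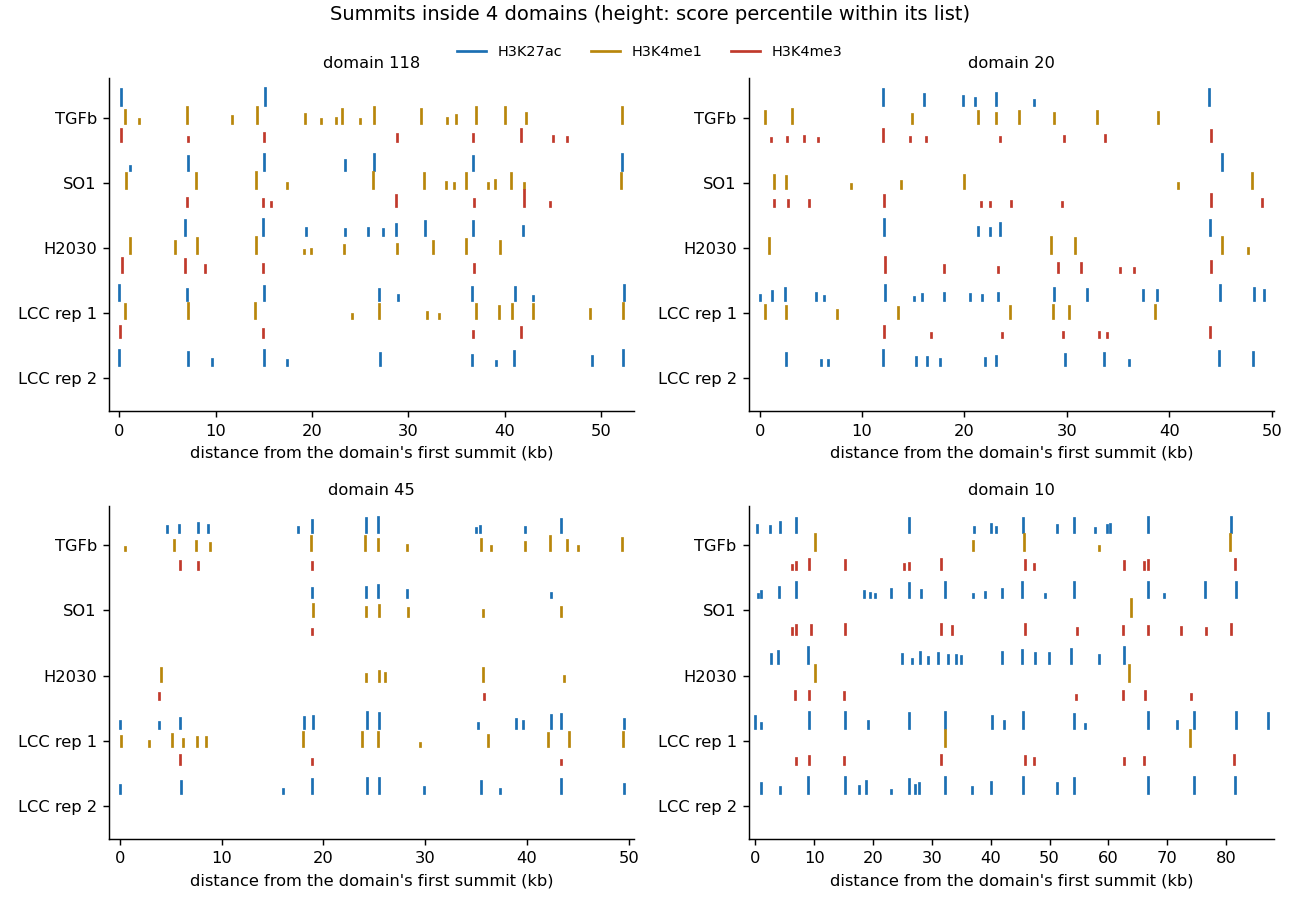
Summit positions in 4 domains, as the distance in kb from the first LCC replicate 1 summit (horizontal axis), with a row for each condition or LCC replicate and a colour for each mark (the LCC H3K4me1 and H3K4me3 summits stand in the row of LCC replicate 1); the height of a tick is the percentile of its score in its own list. Domain 118 has 2 TGFb and domain 20 has 1 SO1 H3K27ac summit, all high ticks, domain 45 has no H2030 H3K27ac summit but 6 of H3K4me1, and domain 10 has at most 5 H3K4me1 summits in any condition.

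Whether a domain was again a cluster in another condition does not use LCC counts on the other side. Regions of at least 8 H3K27ac summits, joined the same way, overlapped 172 domains in TGFb (78.2%, 72.3 to 83.1), 116 in SO1 (52.7%, 46.1 to 59.2) and 115 in H2030 (52.3%, 45.7 to 58.8). The background was 38.3%, 19.6% and 21.9% of all 1566 regions, of which the others are shorter. Any overlap counted, so a cluster could lie mostly beyond the domain. Domain 125, for example, counted in TGFb with 2 TGFb summits inside. Within the bounds of the domains, 149 had 8 or more summits in TGFb, 101 in SO1 and 96 in H2030. The lists formed 934 joined regions of at least 8 summits in TGFb, 417 in SO1 and 897 in H2030. This order did not follow list length, since the SO1 list is longer than the H2030 list. With each list cut to its 50628 highest-scoring summits, the share was 43.6% in TGFb, 40.5% in SO1 and 48.6% in H2030. Without LCC replicate 1 the shares were 57.1%, 30.0% and 30.0%, and without replicate 2 they were 62.2%, 39.2% and 40.5%. With scores of 10 or more, where 20 domains were left, it was 50.0% in TGFb, 80.0% in SO1 and 35.0% in H2030. TGFb thus had the highest share in the main setting and with either LCC replicate left out. H2030 had it at equal list lengths, and SO1 with scores of 10 or more.

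A cluster stood in all 3 other conditions at 58 domains (26.4%), beside 43 of the 1346 other regions (3.19%). These 58 had a median length of 51.1 kb. TGFb and H2030 without SO1 accounted for 40 domains (18.2%, beside 5.42% of the other regions), and TGFb and SO1 without H2030 for another 40 (18.2%, beside 5.57%). SO1 with H2030 had 7 (3.18%, beside 1.19%). Clusters of a single condition were not more frequent than in the other regions by more than 1 percentage point: TGFb by itself had 34 (15.5%, beside 17.6%), SO1 by itself 11 (5.00%, beside 4.23%) and H2030 by itself 10 (4.55%, beside 7.13%). No other condition formed a cluster at 20 domains (9.09%, beside 55.6%), whose median length was 37.3 kb. Where a cluster was found, it was longer than the LCC domain in 106 of 172 cases in TGFb, 55 of 116 in SO1 and 59 of 115 in H2030.

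A low H2030 ratio was most frequent in domains without LCC H3K4me3, the promoter mark. Of the 19 domains without LCC H3K4me3, 12 had a low H2030 ratio (63.2%, 41.0 to 80.9), as had 28 of 86 with 1 or 2 H3K4me3 summits (32.6%, 23.6 to 43.0), 22 of 83 with 3 to 5 (26.5%, 18.2 to 36.9) and 6 of 32 with 6 or more (18.8%, 8.89 to 35.3). The other regions showed the same order, with 71.0%, 51.0%, 37.4% and 16.7%. Median ratios in H2030 ran through 0.38, 0.65, 0.75 and 0.76 in the domains. H2030 clusters overlapped 21.1%, 52.3%, 53.0% and 68.8% of them. Domains with more H3K4me3 were also longer, with medians of 35.5, 40.9, 43.9 and 55.7 kb, and the part of length in this order was not tested.

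In SO1 the shares with a low ratio were 31.6%, 25.6% and 13.3% in the first 3 classes, and 4 of 32 in the domains with 6 or more H3K4me3 summits. The other regions had 50.1%, 35.0%, 19.3% and 27.8%. In TGFb the domains had 21.1%, 11.6%, 16.9% and 9.38%, with no steady order, and the other regions 32.6%, 34.1%, 21.7% and 22.2%. Among the domains, the intervals of neighbouring classes overlap in each condition, and in SO1 and TGFb those of the first and last class overlap as well. In H2030 those of the first and last class do not.

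**Figure D5:**
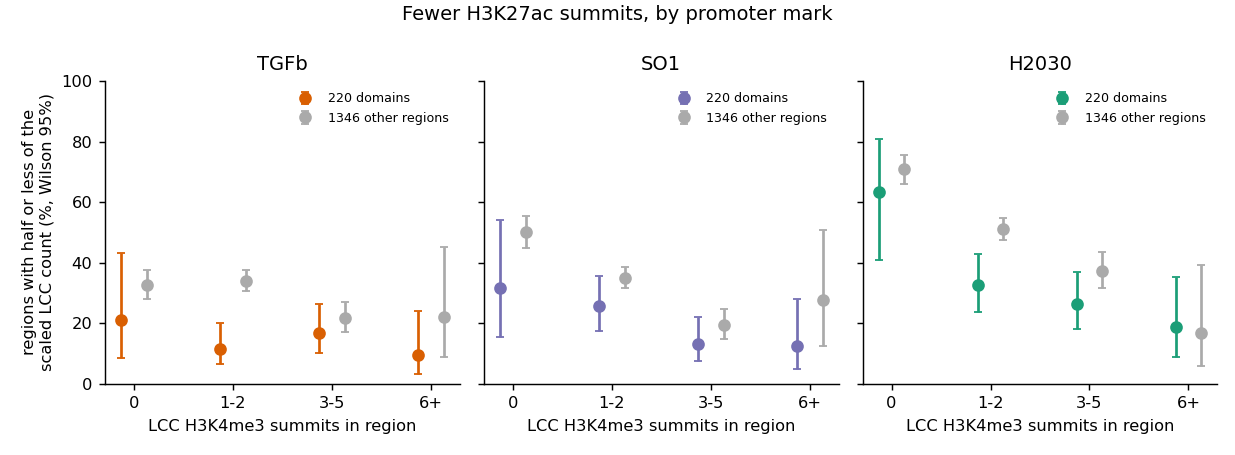
Share of regions with an H3K27ac ratio of 0.5 or less (vertical axis, %, bars: Wilson 95% intervals) by the number of LCC H3K4me3 summits inside, for the 220 domains (colour) and the 1346 other regions (grey), in each condition. In H2030 the domains go down from 63.2% without H3K4me3 to 18.8% with 6 or more.

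Single summits were kept less often inside domains than outside in TGFb and SO1, and by a smaller margin in H2030 and LCC replicate 2. Within 500 bp, TGFb had a summit at 57.0% of the replicate 1 summits in domains (55.0 to 58.9), SO1 at 51.2% (49.2 to 53.2), H2030 at 35.3% (33.5 to 37.3) and LCC replicate 2 at 67.0% (65.1 to 68.8). Outside the domains the shares were 64.7%, 59.5%, 37.2% and 69.9%. The intervals inside and outside overlapped in H2030 and not in TGFb, SO1 or LCC replicate 2. They count summits of the same domain as independent, so their overlap is not a test of the difference. The share for LCC replicate 2 inside the domains is a description, since the rule asked for at least 8 of its summits there.

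H3K4me1, for which the rule asked only 1 LCC summit, had a low count in few domains in TGFb and more in SO1 and H2030. Its count, not scaled for list length, was at 0.5 or less of the LCC count in 2 domains in TGFb (0.909%), 20 in SO1 (9.09%) and 34 in H2030 (15.5%). Among 1333 other regions with LCC H3K4me1 the shares were 4.13%, 12.8% and 31.4%. At least 1 H3K4me1 summit lay in all 220 domains in TGFb, 219 in SO1 and 216 in H2030.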

How the data were processed

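Peak summits of 13 ChIP-seq libraries were used; 5 input libraries were not analysed here. The tools named in the submitters' processing notes are Bowtie2, SAMtools and deepTools, with build hg19; the peak caller is not given in the sources used here. The authors' deposited files list summits of 1 bp with a score on a −log10 scale. It is taken to be significance (p or q, not known which), because its lowest value, 1.30107, lies just above that of 0.05, 1.30103. Peak names in the deposited files show that peaks were called per library. Depth is unknown, so no limit from reads can be given.

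Summits on chromosomes 1 to 22 and X were kept, which left out between 29 and 238 per library. Domains were built with Python 3.11.15 and numpy 2.4.6 as described above. A ratio is the count in a condition over the mean of both LCC replicates, each divided by list length. Regions with at least 4 summits of each LCC replicate are the background. No significance test was run. The ratio threshold was tried on a copy of LCC replicate 1 from which summits had been removed, set against replicate 1 itself. Regions emptied or thinned that far must fall under the threshold, so this checked the counting code only. Domains and lists were chosen with earlier results of these data known. Named domains are the 10 with the highest lower LCC count, the 3 longest, the 3 densest, the 3 with most LCC H3K4me3, the 3 with none and the highest lower count, and, per condition, the 5 lowest and 3 highest ratios (ties by LCC mean); domain 15 and the 5 regions without H3K4me1 were added after their values were seen. No hg19 annotation or genome was used, so the gene lists and motifs that were planned were not examined and no sequence is shown.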

Additional observations from a re-analysis of the deposited data

How the results depend on the processing

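The result values were recomputed under 15 alternatives, which gave 170 values, of which 91 moved by less than their counting interval (counts of domains: by less than 1.5 times) and 79 by more. The cause of the shifts was not tested. No sign or test could be lost, since conditions other than LCC have 1 library per mark. No paired analysis was possible because the replicate numbers of LCC H3K27ac are shared only with LCC inputs, which were not analysed here. The planned motif counts were not run without a genome of build hg19. Summit lists hold no peak widths or reads, so a merged peak and a lost one, or depth and signal, cannot be told apart.

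The number of domains, 220, was 108 with joining at 10 kb, 365 at 15 kb, 89 with at least 10 summits, 573 with at least 6, 20 with scores of 10 or more, 41 with summits within 2.5 kb of H3K4me3 left out, and 302 when joined on replicate 2. With 1 LCC replicate left out it ranged from 444 to 896.

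Low ratios in TGFb made up 45.0% of domains with scores of 10 or more, 8.28% when joined on replicate 2, 8.18% without scaling and 3.64% where the strongest summit had to lie below the highest 10%, an alternative chosen after seeing the data. In SO1 they made up 10.0% with scores of 10 or more and 8.18% with the strongest-summit condition. In H2030 they made up 41.7% with at least 6 summits, 10.0% with scores of 10 or more and 23.6% with the strongest-summit condition. Leaving out a replicate gave 23.0% to 46.8% in TGFb, 31.9% to 44.6% in SO1 and 49.0% to 52.0% in H2030.

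Clusters in TGFb overlapped 83.6% of domains at 15 kb, 50.0% with scores of 10 or more and 43.6% at equal list lengths. In SO1 the share was 45.4% at 10 kb, 60.0% at 15 kb, 60.2% with at least 6 summits, 80.0% with scores of 10 or more and 40.5% at equal list lengths. In H2030 it was 42.6% at 10 kb, 35.0% with scores of 10 or more and 42.3% where 50% of the domain had to be covered. Leaving out a replicate gave 57.1% to 62.2% in TGFb, 30.0% to 39.2% in SO1 and 30.0% to 40.5% in H2030.

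The share of replicate 1 summits kept in TGFb, SO1, H2030 and LCC replicate 2 was 48.6%, 43.8%, 28.4% and 56.8% within 250 bp, 72.8%, 65.8%, 48.3% and 82.4% within 1000 bp, and 62.1%, 66.7%, 41.9% and 80.3% with scores of 10 or more. At equal list lengths it was 52.7% in TGFb and 63.2% in LCC replicate 2. With replicate 2 left out it was 54.2% in TGFb, 49.3% in SO1 and 32.7% in H2030. With replicate 1 left out, the measure became the share of replicate 2 summits kept, in domains joined on replicate 2. That share was 53.3% in TGFb, 43.3% in SO1 and 28.3% in H2030.

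Domains with H3K4me3 made up 85.3% in TGFb, 87.4% in SO1, 74.7% in H2030 and 83.2% in LCC with at least 6 summits. With at least 10 summits they made up 96.6% in TGFb and 100% in SO1. With scores of 10 or more they made up 100% in SO1, 100% in H2030 and 95% in LCC. Leaving out a replicate gave 85.7% to 88.5% in TGFb, 86.9% to 90.1% in SO1, 72.0% to 79.5% in H2030 and 81.7% to 85.8% in LCC.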
